A study of Mus musculus with 9 samples.

Results

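The circadian clock genes described here are 10 mouse genes, Dbp, Tef, Hlf, Per1, Per2, Per3, Nr1d1, Nr1d2, Arntl and Ciart, measured by RNA sequencing of whole spinal cord. They are 10 of the 27179 gene identifiers counted, and all 10 were among the 16749 genes that passed the filter on low counts. The set was picked on Dbp being higher in treated cord than in Control cord, and the other members were listed for their known place in the clock. Values of the treated against Control comparison are therefore a description, and no p-value is given for Dbp in any comparison, since each shares libraries with the one that chose it. The 3 groups of 3 C57BL/6 mice were Control, experimental autoimmune encephalomyelitis (EAE), and EAE+EHP-101, which is EAE with EHP-101 given orally at 20 mg/kg and is called treated here. EAE is used as a model of multiple sclerosis, in which immune cells enter the cord and attack myelin. EHP-101 is known here by its code name only, and is understood to act on PPAR gamma, a nuclear receptor, and on the CB2 receptor, the product of Cnr2. How EAE was induced, what Control mice received, the age of the mice, the length of treatment and the hour at which cord was taken were not given in the sources used here.

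The clock of mammalian cells is a feedback loop of transcription. ARNTL, also called BMAL1, pairs with CLOCK or NPAS2 on E-box elements and drives the Per, Cry, Ciart, Nr1d1, Nr1d2 and Dbp genes; the PER, CRY and CIART proteins then hold that pair back, while the REV-ERB receptors made by Nr1d1 and Nr1d2 repress Arntl and the ROR receptors activate it. DBP, TEF and HLF, the PAR bZIP factors, bind D-box elements and carry the rhythm to output genes, so in a cycling tissue Arntl transcripts peak when Dbp and Nr1d1 transcripts are low.

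The start regions of 5 members are shown. These 5 lay past the calling threshold in treated against Control cord, the comparison on which Dbp was picked. That choice sets only what is printed, and nothing is read from it. The 5 members cover each role in the loop: Arntl the activator, Ciart and Per3 repressors, Nr1d1 the receptor that represses Arntl, and Dbp the output factor. Each is the 250 bases before a transcription start in the RefSeq table of assembly GRCm38.p6, 5′ to 3′ on the strand of the gene, with motif letters in capitals. They lie at chr7:113207215-113207464 (Arntl, plus strand), chr3:95882229-95882478 (Ciart, minus), chr4:151044666-151044915 (Per3, minus), chr11:98775378-98775627 (Nr1d1, minus) and chr7:45704997-45705246 (Dbp, plus).
Arntl: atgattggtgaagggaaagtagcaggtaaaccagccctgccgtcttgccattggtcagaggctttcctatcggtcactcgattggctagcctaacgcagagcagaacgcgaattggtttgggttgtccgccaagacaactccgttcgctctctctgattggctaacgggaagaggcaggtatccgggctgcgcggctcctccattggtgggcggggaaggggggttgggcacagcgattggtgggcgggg
Ciart: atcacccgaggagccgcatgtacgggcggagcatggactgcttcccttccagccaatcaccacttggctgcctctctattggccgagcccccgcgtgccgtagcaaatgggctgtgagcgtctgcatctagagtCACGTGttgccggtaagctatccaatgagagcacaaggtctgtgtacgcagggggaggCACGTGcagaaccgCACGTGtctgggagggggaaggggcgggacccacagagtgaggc
Per3: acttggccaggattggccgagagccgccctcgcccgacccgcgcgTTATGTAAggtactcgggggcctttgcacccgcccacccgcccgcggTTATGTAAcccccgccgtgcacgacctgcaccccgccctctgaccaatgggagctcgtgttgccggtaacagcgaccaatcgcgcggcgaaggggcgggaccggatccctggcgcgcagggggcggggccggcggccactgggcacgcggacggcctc
Nr1d1: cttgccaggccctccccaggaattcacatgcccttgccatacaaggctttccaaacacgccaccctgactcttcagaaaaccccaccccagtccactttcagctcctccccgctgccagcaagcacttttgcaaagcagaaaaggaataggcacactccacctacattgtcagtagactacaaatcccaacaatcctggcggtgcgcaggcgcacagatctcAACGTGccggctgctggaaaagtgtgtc
Dbp: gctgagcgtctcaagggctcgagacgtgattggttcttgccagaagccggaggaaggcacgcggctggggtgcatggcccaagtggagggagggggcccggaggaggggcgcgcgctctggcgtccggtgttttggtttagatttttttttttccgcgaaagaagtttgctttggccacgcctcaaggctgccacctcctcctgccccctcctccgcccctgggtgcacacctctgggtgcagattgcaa

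Of the 10 members, 9 had an entry in that table, with 12 windows between them, and Per2 is named only. The letters CACGTG, the E-box, stood 3 times in the Ciart window, and were also found in Tef and Per1, so that 3 of 9 members held them against 6.02% of all 32851 windows of the table. Nr1d1 held the variant E-box CACGTT, read on the other strand between 28 and 23 bases before its start, which stood in 3.85% of all windows. The Per3 window held the D-box letters TTATGTAA at 205 to 198 and at 158 to 151 bases before its start. TTATGTAA or the related TTACGTAA stood in 0.931% of all windows. TGACGTCA, the cyclic AMP element, was found in Hlf and in 1.55% of windows, and the core of the ROR element, TAGGTCA or TGGGTCA, in none of the members' windows and in 5.38% of all. Both strands were searched and no 2 of these matches overlapped within a member. A match of letters is a description of the window and not a measured binding site, and the windows of Dbp and Arntl printed above held none of these letters.

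Libraries held 30448507 to 32661741 counts, and the 3 libraries of each group were biological replicates. Genes defining neurons, astrocytes and oligodendrocytes were abundant in all 9 libraries, as the label spinal cord implies, with summed oligodendrocyte markers of 27975 to 38089 normalised CPM (read counts scaled to a common library size with TMM factors). The 8 leukocyte markers summed to 28.4 to 34.1 CPM in Control, 888 to 1038 in EAE, and 58.5, 198 and 279 in the treated libraries. Treated replicate 1 was the lowest of the treated group. The 8 skeletal muscle markers reached a sum of 50.2 CPM in Control replicate 1, where the other 8 libraries had 2.33 to 3.62. Values below are CPM, fold changes are log2 differences from edgeR's quasi-likelihood test with their standard error (SE), and a gene is called at a Benjamini-Hochberg adjusted p under 0.05 over all 16749 genes.

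In EAE cord the activator Arntl fell and Nr1d1, a repressor of Arntl, rose, while Dbp was the member with the largest difference from Control. Of the 9 members other than Dbp, 2 were called, which is 22.2% against 37.0% of all genes tested. They were 1 of 9 called higher, against 20.2% of all genes, and 1 of 9 called lower, against 16.7%. The median log2 difference of the 9 members other than Dbp was 0.06, beside 0.01 over all genes tested. Their median absolute difference of 0.065 was below the 0.22 of all genes. In whole tissue a lower level cannot be told apart from fewer cells of the type that makes the transcript.

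Arntl measured 26.4, 24.7 and 22.4 CPM in Control replicates 1 to 3, 16.5, 15.2 and 17.2 in EAE, and 17.1, 16.6 and 15.5 in treated cord. Every Control library lay above all 6 libraries of mice with EAE, treated or not, and those 6 spanned a narrow range. In EAE against Control its log2 change was -0.59 (SE 0.08, 95% interval -0.77 to -0.40), with an adjusted p of 0.000385. In treated against EAE cord it was 0.01 (interval -0.18 to 0.19, adjusted p = 0.977). The deposited gene model of Arntl spans positions 113207465 to 113314126 of chromosome 7, plus strand, in mm10.

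The partners of ARNTL were lower too. Clock measured 126, 127 and 140 CPM in Control and 94.2, 92.8 and 100.98 in EAE, with no overlap, and 104, 93.9 and 95.3 in treated cord. Its log2 change in EAE was -0.45 (SE 0.07, adjusted p = 0.000482). With a trend of fold change on gene length removed this became -0.21 with an adjusted p of 0.0304, while Arntl stayed at -0.59. Npas2, which can stand in for CLOCK, measured 10.9, 13.7 and 11.9 CPM in Control, 7.58, 7.496 and 7.95 in EAE, and 7.87, 7.76 and 7.78 in treated cord. Its EAE and treated libraries all lay below the Control libraries, and its log2 change in EAE was -0.67 (SE 0.10, adjusted p = 0.000533). Against EAE, treated cord differed by 0.03 for Clock (adjusted p = 0.883) and 0.02 for Npas2 (adjusted p = 0.938).

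**Figure D1:**
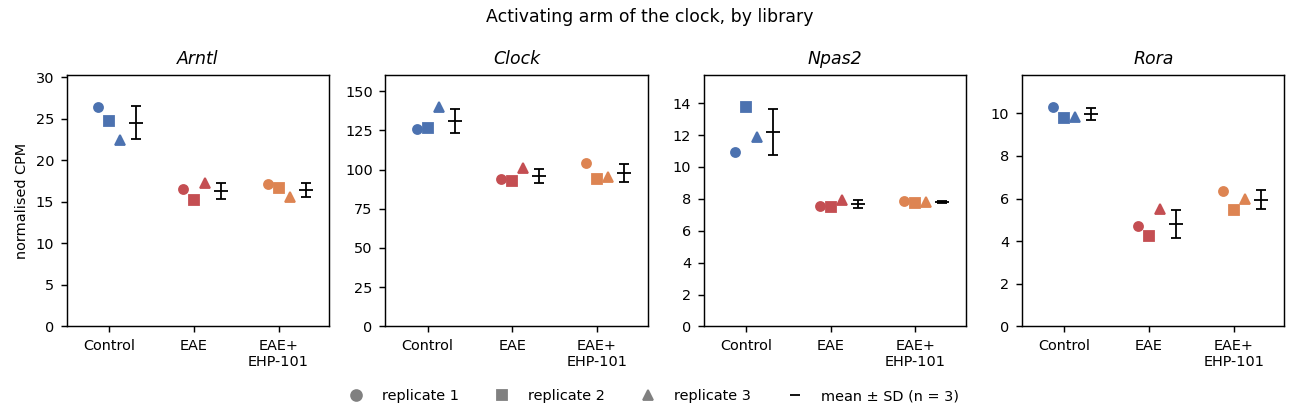
Normalised CPM of the activators of the loop, Arntl, Clock and Npas2, and of Rora in each of the 9 libraries, by group; points are libraries, and dashes with error bars are the mean ± SD of 3 libraries. For each of the 4 genes all 3 Control libraries lie above all 6 libraries of mice with EAE.

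Among the repressors of the ARNTL and CLOCK pair, Per1 measured 27.7, 28.2 and 24.4 CPM in Control, 30.3, 40.5 and 45.9 in EAE, and 28.8, 32.7 and 51.0 in treated cord. The lowest EAE and treated libraries lay just above the highest Control library, and the spread within both groups with EAE was wide. The log2 difference of EAE from Control was 0.54 (SE 0.20, interval 0.11 to 0.97) with an adjusted p of 0.0513, so Per1 was not called. Per1 was called in 5 of 6 other settings: DESeq2 (adjusted p = 0.0201), library totals (0.0468), no filter (0.0376), a fit of 2 groups (0.0146) and the length trend removed (0.0328), but not with DESeq2 size factors (0.0559). With 1 library left out it was called in 3 of 9 fits, those without EAE replicate 1, treated replicate 1 or treated replicate 3, and the adjusted p ran from 0.0126 to 0.183. In treated against EAE cord the difference was -0.05 (interval -0.48 to 0.37, adjusted p = 0.926).

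Per2 measured 17.6, 17.0 and 17.7 CPM in Control, 17.6, 14.3 and 20.5 in EAE, and 18.8, 18.4 and 25.1 in treated cord. Control libraries were nearly equal, the EAE libraries lay on both sides of them, and treated replicate 3 was the highest of the 9. The log2 difference was 0.00 for EAE against Control (interval -0.31 to 0.31, adjusted p = 0.992) and 0.25 for treated against EAE (interval -0.06 to 0.56, adjusted p = 0.432). Per1 and Per2 encode paralogous repressors, and the highest treated value of both was in replicate 3.

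Per3, the third period gene, had its highest values in treated cord. It measured 36.3, 37.8 and 39.8 CPM in Control, 37.2, 31.7 and 42.9 in EAE, and 44.2, 48.6 and 52.0 in treated cord. All treated libraries exceeded all libraries of both other groups, and the Control range lay within the EAE range. EAE differed from Control by -0.03 on the log2 scale (interval -0.25 to 0.20, adjusted p = 0.864). Treated differed from EAE cord by 0.37 (SE 0.10, interval 0.15 to 0.59, 1.29-fold, unadjusted p = 0.00348), which missed the threshold with an adjusted p of 0.0599. It passed with DESeq2 (adjusted p = 0.0153), without a filter on low counts (0.0425) and with the replicate number as a block (0.0399). It was not called with the length trend removed (0.0838), DESeq2 size factors, library totals or a fit of 2 groups. With 1 library left out Per3 was called in 2 of 9 fits, without Control replicate 3 (0.0446) and without EAE replicate 3 (0.0156). Over those 9 fits its adjusted p reached 0.199. The paired D-box letters of its start region are printed above.

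Ciart, also known as CHRONO, a repressor that acts on the ARNTL and CLOCK pair, was the member with the fewest counts. It measured 6.37, 6.45 and 6.29 CPM in Control, 8.30, 6.18 and 7.64 in EAE, and 9.47, 8.60 and 9.67 in treated cord. Its treated libraries all lay above its EAE libraries, and EAE replicate 2 lay below every Control library. The log2 difference was 0.21 for EAE against Control (SE 0.12, adjusted p = 0.189) and 0.33 for treated against EAE (SE 0.12, interval 0.07 to 0.58, adjusted p = 0.169), neither of them called.

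The REV-ERB receptors differed from each other. Nr1d1, which encodes REV-ERB alpha, measured 65.7, 80.4 and 66.0 CPM in Control, 89.8, 86.2 and 83.7 in EAE, and 105, 95.3 and 92.6 in treated cord. The 3 groups did not overlap and stood in the order Control, EAE, treated. Nr1d1 rose in EAE by 0.29 on the log2 scale (SE 0.08, interval 0.11 to 0.48, 1.22-fold, adjusted p = 0.0176). That call was lost when Control replicate 1 (adjusted p = 0.0971), Control replicate 3 (0.0693), EAE replicate 1 (0.0717) or EAE replicate 2 (0.0705) was left out. Treated against EAE cord gave 0.17 (interval -0.01 to 0.36, adjusted p = 0.337). Nr1d2, which encodes REV-ERB beta, measured 122, 114 and 144 CPM in Control, 129, 129.7 and 135 in EAE, and 128, 133 and 136 in treated cord. Its EAE and treated libraries lay within the Control range, and its log2 differences were 0.05 (interval -0.12 to 0.22, adjusted p = 0.650) and 0.01 (interval -0.16 to 0.19, adjusted p = 0.954).

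Rora encodes the ROR receptor that activates Arntl at the elements REV-ERB proteins repress. Rora measured 10.3, 9.78 and 9.83 CPM in Control, 4.71, 4.23 and 5.52 in EAE, and 6.37, 5.47 and 5.99 in treated cord. All libraries of mice with EAE lay well below Control. Its log2 change in EAE was -1.05 (SE 0.12, adjusted p = 0.000106). Treated cord lay 0.30 above EAE on the log2 scale (adjusted p = 0.230, not called).

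The PAR bZIP factors also split. Dbp measured 7.82, 12.3 and 14.1 CPM in Control, 25.0, 26.4 and 25.7 in EAE, and 27.0, 28.9 and 29.6 in treated cord. All EAE libraries lay above all Control libraries and below all treated libraries. The group means were 11.4 ± 3.21 (SD, n = 3), 25.7 ± 0.728 and 28.5 ± 1.36 CPM, so the spread was widest in Control. EAE lay 1.17 above Control on the log2 scale (SE 0.16, interval 0.83 to 1.52, 2.26-fold), given with no test. The lowest Dbp value was in Control replicate 1, the library with the high skeletal muscle markers. Without that library the difference was 0.93. Treated lay 0.15 above EAE cord, with an interval of -0.18 to 0.47. That difference was small beside the distance of both groups from Control, and its interval includes 0.

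Tef and Hlf, the paralogs of Dbp, differed little between groups, except for Hlf with the length trend removed. Tef measured 185, 189.8 and 215 CPM in Control, 203, 195 and 219 in EAE, and 216, 222 and 224 in treated cord. Hlf measured 55.0, 51.9 and 58.8 CPM in Control, 61.9, 52.2 and 58.3 in EAE, and 62.2, 59.9 and 59.3 in treated cord. For both genes the treated libraries lay above the Control libraries, by a narrow margin, and the EAE libraries overlapped both groups. The log2 difference of EAE from Control was 0.07 for Tef (interval -0.09 to 0.22, adjusted p = 0.488) and 0.06 for Hlf (interval -0.10 to 0.22, adjusted p = 0.563). Treated against EAE gave 0.10 for Tef (adjusted p = 0.535) and 0.07 for Hlf (adjusted p = 0.686). With the length trend removed, Hlf was called higher in EAE against Control, at 0.22 (adjusted p = 0.0395). Tef, at 0.17, was not (adjusted p = 0.0921).

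**Figure D2:**
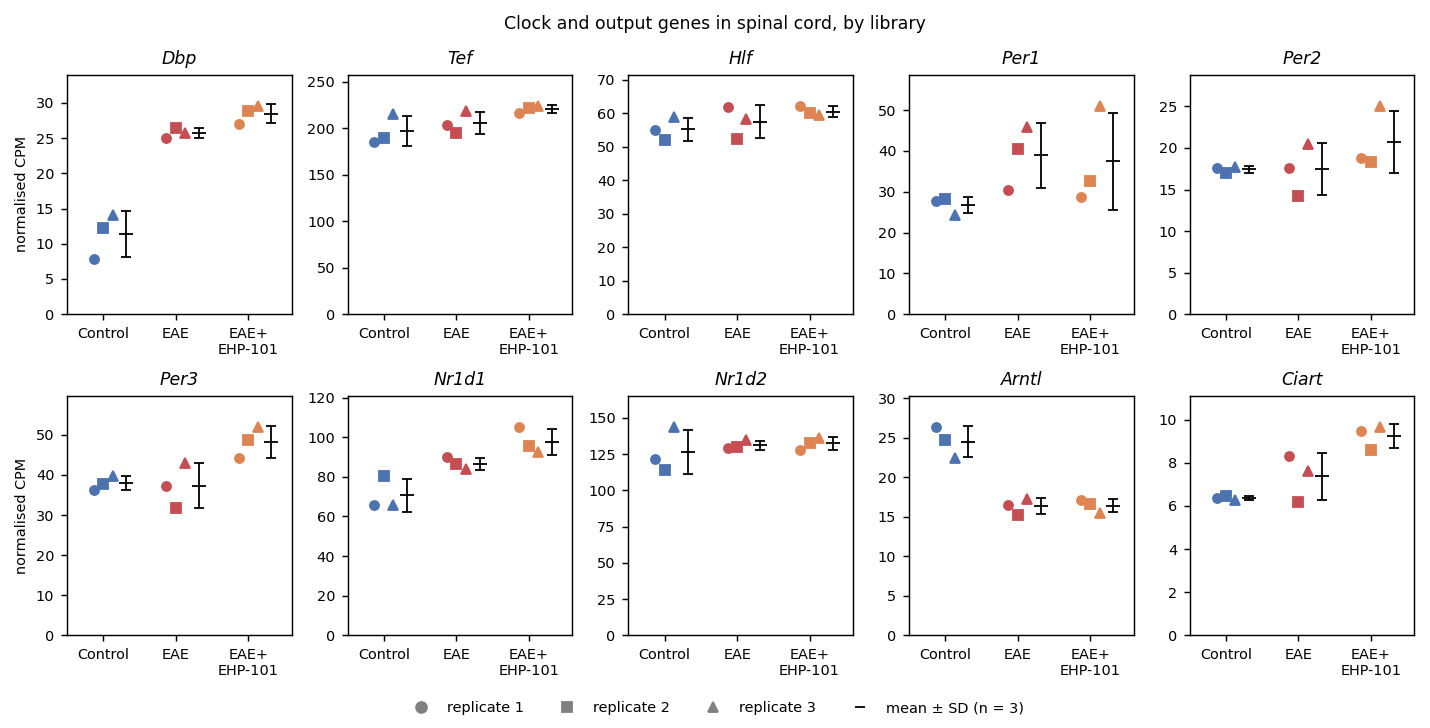
Normalised CPM of the 10 members in each of the 9 libraries, 1 panel a gene, with points for libraries and dashes with error bars for the mean ± SD (n = 3); each axis starts at 0. Dbp and Nr1d1 step up from Control to both groups with EAE, Arntl steps down, Per3 is highest in the treated libraries, and Nr1d2 overlaps across all groups.

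The Dbp transcript lies at positions 45705247 to 45710203 of chromosome 7, plus strand, in mm10. It shares 539 exon bases, of an exon length of 1678, with Sphk2 on the opposite strand, and the libraries were stranded while the strand setting of the counting is not given. Sphk2 lay between 29.5 and 35.3 CPM in all 9 libraries. It differed by 0.08 between EAE and Control (SE 0.07, adjusted p = 0.399), against the 1.17 of Dbp. Whether reads of one were counted for the other was not tested. Per3 and Ciart overlap neighbouring genes with 0 shared exon bases.

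Treated against EAE cord is the comparison that asks what the compound moved. None of the 9 members other than Dbp was called, with edgeR, against 5.24% of all genes tested (0.430% higher and 4.81% lower). At an unadjusted p under 0.05 there were 2 of 9, Per3 and Ciart, both higher in treated cord, where 16.2% of all genes lay under that p. DESeq2 called 1, Per3, and 6.54% of all genes. The median log2 difference of the 9 members other than Dbp was 0.10, and that of all genes -0.00. The number of genes called in this comparison moved with single libraries, from 877 to 495 without EAE replicate 1, 370 without EAE replicate 2, 575 without treated replicate 1 and 529 without treated replicate 2. Over the same pair of groups 6 of 8 leukocyte markers were called lower, and their part in the members' values was not tested.

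**Figure D3:**
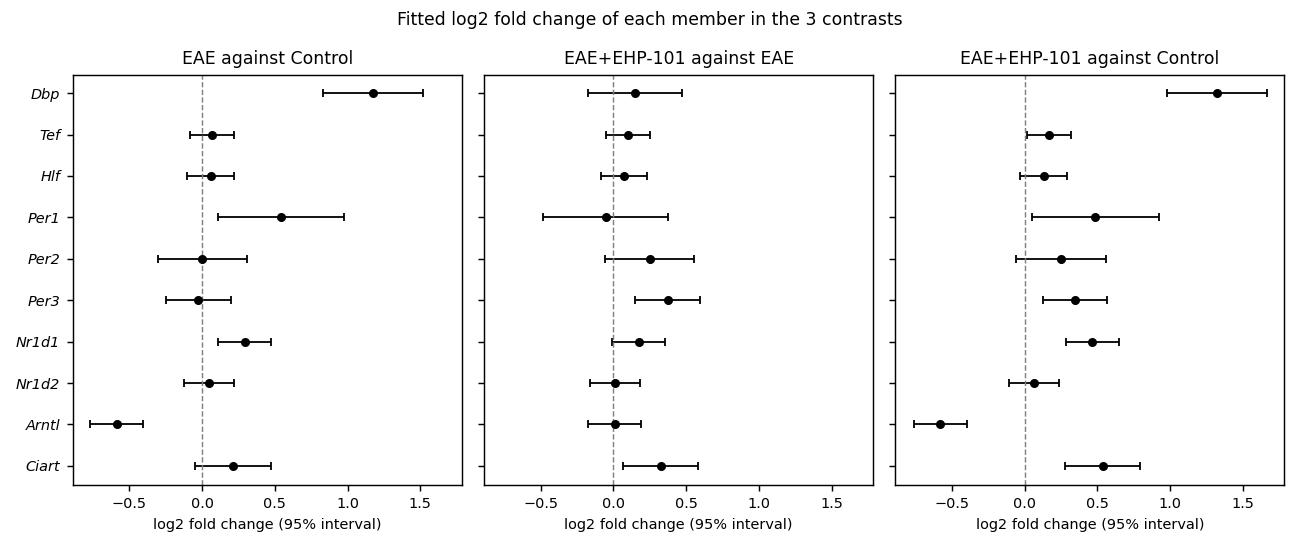
Log2 differences of the 10 members in the 3 comparisons, points with bars for 95% intervals from the edgeR fit over all 9 libraries; the dashed line marks 0. Dbp stands far to the right and Arntl to the left of 0 in both comparisons with Control, while in treated against EAE cord the intervals of Per3 and Ciart alone leave 0 out.

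Treated against Control cord, the comparison on which Dbp was picked, is given as a description. Dbp was 1.32 higher on the log2 scale (SE 0.16, 2.501-fold), Ciart 0.54 (SE 0.12), Nr1d1 0.47 (SE 0.08) and Per3 0.35 (SE 0.10). Arntl differed by -0.58 (SE 0.08). These 5 of 10 members lay past the threshold, 4 higher and 1 lower, where 19.8% of all genes did, 9.96% higher and 9.82% lower, and nothing is read from the count. With library totals in place of TMM factors, 2176 genes were called higher and 1319 lower, against 1669 and 1645. Without treated replicate 3 the count of members was 3. The calls over all genes numbered 1923 without Control replicate 2, 629 without treated replicate 2, 1016 without treated replicate 3 and 1553 with the length trend removed, against 3314. The differences of the other 5 were 0.49 for Per1, 0.25 for Per2, 0.17 for Tef, 0.13 for Hlf and 0.06 for Nr1d2. EAE against Control and treated against Control share the Control libraries, and their values for Arntl were -0.59 and -0.58.

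Per kilobase of exon (RPKM), Tef was the highest and Per2 the lowest member in all 3 groups. In Control the levels ran from Tef at 44.1 RPKM through Nr1d2 at 27.3, Nr1d1 at 26.9, Hlf at 9.75, Arntl at 8.43, Dbp at 6.78, Per3 at 6.37, Per1 at 5.69 and Ciart at 4.57 to Per2 at 2.99. Neighbours whose library ranges overlapped there were Nr1d2 with Nr1d1, Arntl with Dbp, and Dbp with Per3. In EAE, Dbp was at 15.3 RPKM, with no overlap with Nr1d2 above it and Hlf below it. Arntl stood at 5.61, where its range overlapped those of Per3 and Ciart. In treated cord Dbp lay at 17.0 RPKM, again between Nr1d2 and Hlf, and Arntl, at 5.65, lay below Ciart with no overlap, next to last.

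Since Dbp and Arntl transcripts are known to run in opposite phase, the ratio of their RPKM levels was taken within each library. Dbp was picked for its level in these same libraries, so the ratio to it is a description and supports nothing further. Dbp over Arntl was 0.514, 0.860 and 1.09 in Control, 2.62, 3.00 and 2.58 in EAE, and 2.73, 3.01 and 3.30 in treated cord. Every library of a mouse with EAE lay above every Control library, and the EAE and treated ranges overlapped. Nr1d1 over Arntl gave 2.76, 3.596 and 3.26 in Control, 6.02, 6.26 and 5.38 in EAE, and 6.80, 6.35 and 6.60 in treated cord. It too separated Control from both other groups, with a narrow gap between EAE and treated. The separation from Control was fixed by the levels given above, since Nr1d1 lay above and Arntl below every Control library. This ratio is therefore a description as well. The summed leukocyte markers, given above, also differed between the groups, and their part in these ratios was not tested.

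**Figure D4:**
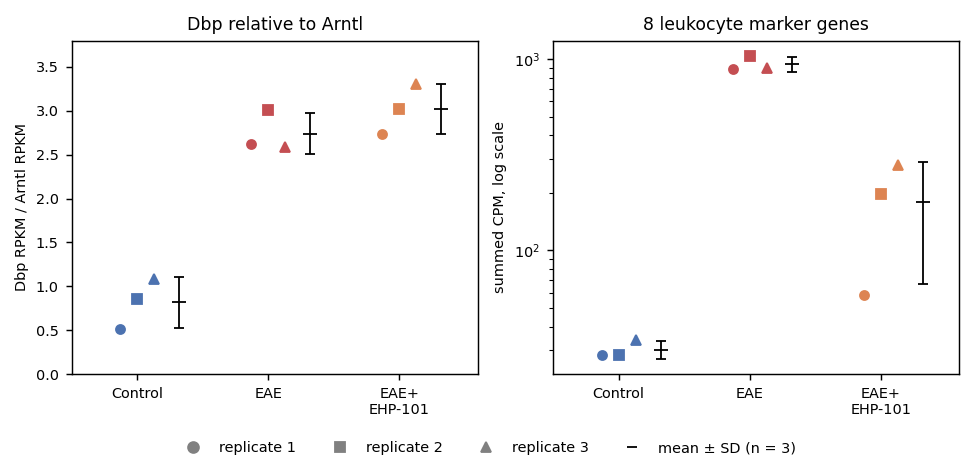
The left panel plots the ratio of the RPKM levels of Dbp and Arntl, and the right panel the summed CPM of 8 leukocyte markers on a log axis, for each library by group, with the mean ± SD (n = 3). Control ratios lie at or below 1.09 and the treated ratios overlap those of EAE, and the leukocyte sums are 58.5 to 279 CPM in treated cord and 888 to 1038 in EAE.

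A list of 27 other genes linked to the clock, not all of them parts or regulators of it, was tested whole. In EAE against Control 10 were called, 3 higher and 7 lower, or 37.0%, the same share as over all genes. The median log2 difference of the 27 genes was -0.01. The 7 that fell were Clock, Npas2, Rora, Arntl2, Gsk3b, Fbxl21 and Btrc, and the 3 that rose were Bhlhe41, Usp2 and Tspan4, named in full after their values were seen. Tspan4 had the largest rise, 0.86 on the log2 scale (SE 0.10, adjusted p = 0.000129). It measured 10.8, 9.90 and 12.3 CPM in Control, 20.1, 20.9 and 18.7 in EAE, and 15.0, 16.2 and 18.0 in treated cord, which lay between the other groups. Bhlhe41, also called DEC2, a repressor that competes at E-boxes, rose by 0.33 (SE 0.09, adjusted p = 0.0129). That call was lost with the length trend removed (adjusted p = 0.207) and without Control replicate 2, Control replicate 3 or EAE replicate 3.

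The cryptochromes, which repress together with the PER proteins, were not called in EAE. Cry1 differed by -0.14 (adjusted p = 0.205) and Cry2 by -0.08 (adjusted p = 0.421). Cry2 was called lower without Control replicate 3, at -0.18 with an adjusted p of 0.0298. Nfil3, which binds D-boxes and opposes DBP there, differed by 0.15 (adjusted p = 0.241). In treated against EAE cord, edgeR called 0 of these 27 genes, with 4 at an unadjusted p under 0.05 (16.2% of all genes), and DESeq2 called 0. In treated against Control cord 9 of 27 were called, against 19.8% of all genes. They were 2 higher, against 9.96%, and 7 lower, against 9.82%.

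Glucocorticoid hormones induce Per1 and other genes, so 15 glucocorticoid response genes were counted beside the members. In EAE against Control, 4 were called higher and 1 lower, 33.3% against 37.0% of all genes. Fkbp5 rose by 0.25 (SE 0.07, adjusted p = 0.0169), a call lost without Control replicate 2, Control replicate 3 or EAE replicate 2. Zbtb16 fell, by -0.50 on the log2 scale (SE 0.14, adjusted p = 0.0175), a call lost with the length trend removed and without Control replicate 2, EAE replicate 1 or EAE replicate 2. Tsc22d3 differed by 0.16 (adjusted p = 0.188). Mt1 and Mt2, named after their values were seen, encode metallothioneins, which bind zinc and respond to several stresses. Mt1 rose in EAE by 1.05 (adjusted p = 0.000383) and Mt2 by 1.34 (adjusted p = 0.000427). In treated against EAE cord these 2 of 15 genes were called, against 5.24% of all genes, Mt1 at -0.71 (adjusted p = 0.0166) and Mt2 at -0.79 (adjusted p = 0.0354).

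Markers of other cell types moved over the same groups as Arntl and Dbp. In EAE against Control all 8 leukocyte markers and all 4 markers of meninges and fibroblasts were called higher, and all 6 endothelial markers lower. The summed endothelial markers were 206 to 293 CPM in Control, 135 to 176 in EAE and 194 to 228 in treated cord. Fibroblast and meningeal markers summed to 40.4 to 47.6, 129 to 133 and 45.7 to 68.2 CPM in the same order. In treated against EAE cord all 4 fibroblast and meningeal markers were called lower. Of the microglia markers 3 of 5 were called higher in EAE against Control, and 3 of 5 lower in treated against EAE cord. Arntl measured 15.2 to 17.2 CPM in EAE and 15.5 to 17.1 in treated cord, and its relation to any of these markers was not tested. Of the neuron markers 3 of 6 were called lower in EAE, and of the astrocyte markers 3 of 6 higher. No marker of these lists was at 0 in all libraries. The part of cell makeup in the members' values was not tested.

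The genes whose pattern over the 9 libraries was nearest to that of Dbp were sought by the root mean square difference of centred log2 CPM. The search covered 1275 genes whose standard deviation was at least 0.5 of that of Dbp. The nearest were Wnt4 (0.281), Flnc (0.296), Loxl2 (0.298), Trappc6a (0.321) and Tnc (0.341). The members and the genes of the other lists were left out before the search. Wnt4, a secreted signalling protein, averaged 2.35 CPM in Control, 3.78 in EAE and 4.02 in treated cord. Flnc, which encodes the actin crosslinker filamin C, averaged 30.5, 69.0 and 56.8 CPM. Loxl2, a lysyl oxidase family enzyme of the matrix, averaged 6.67, 16.1 and 12.2 CPM, and was lower in treated than in EAE cord by these means, where Dbp was not.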

How the data were processed

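Poly-A selected, stranded libraries of single-end 50 bp reads were made from spinal cord of 3 groups of 3 mice, per the labels' protocols. The deposited values are raw read counts per gene under Entrez identifiers, per the file headers. Per the submitters' processing notes, the authors used featureCounts 1.6.1, HISAT2 2.1.0, Trimmomatic 0.36 and DESeq2 1.20.0 with build mm10; the role of each was not stated there. How strand and multiply mapped reads were handled was not given in the sources used here.

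Symbols came from a RefSeq table of GRCm38.p6, matched for 25275 of 27179 identifiers. In R 4.3.3, edgeR 4.0.16 kept 16749 genes (filterByExpr with the group factor), scaled by TMM factors, and fitted all 9 libraries in 1 quasi-likelihood model with a mean for each group. P-values were Benjamini-Hochberg adjusted over all genes tested. The steps were tested on simulated data. Each pair of replicates differed by more than counting noise (chi-square per degree of freedom 6.36 to 26.1).

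The members and all gene lists were chosen with earlier results of these data known. All members were named whatever their values, with 6 clock genes (Clock, Npas2, Cry1, Cry2, Nfil3, Bhlhe41), the strongest others of that list by p, 3 glucocorticoid genes and the 5 genes nearest to Dbp; others are said to be named after their values were seen. Alternatives were DESeq2 1.42.0 and its size factors, library totals, no filter, fits of 2 groups, a removed length trend, a replicate block and each library left out.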

Additional observations from a re-analysis of the deposited data

How the results depend on the processing

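Of 704 values of single genes under the alternatives in EAE against Control and treated against EAE, 642 kept their direction and their side of the threshold. Of 352 in treated against Control, which has no test, 1 turned its direction, Nr1d2 at -0.0229 without Control replicate 2. In EAE against Control, 5 of 10 members lay past the threshold with the length trend removed, against 3. With 1 library left out there were 2 to 4. These counts include Dbp, which is given with no test, so they are a description. The members other than Dbp were Arntl, Nr1d1, Per1 and Hlf with the trend removed, and Arntl and Nr1d1 with it left in. Over all genes, removing the length trend gave 25.4% called, against 37.0%, and in treated against Control 1553 genes against 3314. The counts with Dbp are not set against these shares. In treated against EAE cord 1 member was called, against 0, with DESeq2, without the filter and with the replicate block, and 0 to 1 with 1 library left out. In treated against Control cord, 3 to 6 lay past the threshold with 1 library left out. Per2 in EAE against Control turned from 0.00 to -0.0128 with DESeq2 size factors, -0.0130 with the DESeq2 Wald test, -0.000981 without the filter, -0.00753 in a fit of 2 groups and -0.0133 with the replicate block. With the length trend removed, Per3 in EAE against Control became 0.15 and Cry2 0.0219, and in treated against EAE cord Nr1d2 became -0.0106 and Clock -0.0325. The cause was not tested.

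With 1 library left out, directions turned for EAE against Control in Tef (-0.00599 to 0.103), Hlf (-0.0175 to 0.0896), Per2 (-0.141 to 0.0953), Per3 (-0.152 to 0.0457) and Nr1d2 (-0.0510 to 0.120). They turned for treated against EAE in Per1 (-0.341 to 0.110), Nr1d2 (-0.00827 to 0.0426), Arntl (-0.0223 to 0.0525) and Clock (-0.0170 to 0.0700). None of these had been called, apart from Hlf in EAE against Control with the length trend removed. With the replicate block Per1 was called in EAE against Control (adjusted p = 0.0420). Same-numbered libraries correlated in their deviations at -0.187 to 0.123, and 2 of 18 comparisons were best with the own number, so the replicate number does not pair them. The block gave 5345, 722 and 2272 called genes in the 3 comparisons, against 6191, 877 and 3314.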

Other observations

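Per1 and Sgk1, a kinase gene induced by glucocorticoids and other stimuli, had wide spreads in both groups with EAE, and the values are set side by side. Sgk1 was chosen after its values were seen. It measured 43.7, 46.9 and 65.1 CPM in Control, 98.9, 244 and 244 in EAE, and 55.4, 105 and 281 in treated cord, where Per1 measured 28.8, 32.7 and 51.0. Within EAE and within the treated group, replicate 1 was the lowest library for both genes, and treated replicate 3 was the highest of the 9 for both. The Control libraries went the other way. Control replicate 3 was the highest of its group for Sgk1, at 65.1 CPM, and the lowest for Per1, at 24.4 CPM. Sgk1 rose in EAE against Control by 1.91 on the log2 scale (SE 0.51, adjusted p = 0.0123 with edgeR's quasi-likelihood test), a call lost without Control replicate 2, and treated against EAE gave -0.41 (adjusted p = 0.734).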
